A study of Mus musculus with 40 samples.

Results

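The immunity-related GTPases (IRG proteins) described here are the 6 genes Igtp, Irgm1, Irgm2, Iigp1, Tgtp1 and Tgtp2. They were chosen by symbol, and all 6 were present among the 21347 genes kept from the table. The study asked how extracellular matrix under carcinoma cells bears on their clearance by T cells. RNA was sequenced from 4T1 cells, a mouse mammary carcinoma line, grown alone or with T cells of C57Bl6 spleens in 5 experiments. Wells were uncoated tissue culture polystyrene (PS) or the same plastic coated with fibronectin (Fn), collagen I (Col1), collagen IV (Col4) or vitronectin (Vtn) at 250 µg/ml. Carcinoma cells were seeded at 10000 per cm2 and, the next day, T cells at 80000 per cm2. Interleukin 2 at 30 U/mL went into the wells of both arms, which were harvested 24 h later. Libraries of 4T1 alone numbered 5 on PS, 5 on Fn, 4 on Col1, 4 on Col4 and 4 on Vtn, and co-cultures numbered 4, 4, 3, 4 and 3. The replicate number of a library is its experiment. Experiment 1 held only PS and Fn wells, and experiment 3 held 1 co-culture, on Col4. Each culture is of 1 established line, and free cells were pooled with the trypsinised cells, so a co-culture library mixes RNA of carcinoma cells and T cells. A transcript of the mixture cannot be assigned to either cell type, and fewer cells of a type cannot be told apart from less RNA per cell.

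IRG proteins are large GTPases of the mouse innate defence against bacteria and parasites that live in vacuoles. Interferon gamma, a cytokine of activated T cells and natural killer cells, induces them in many cell types through the kinases JAK1 and JAK2 and transcription factors that include IRF1. Iigp1 (Irga6) and the near-identical pair Tgtp1 and Tgtp2 (Irgb6) are effectors that load onto the pathogen vacuole. Irgm1, Irgm2 and Igtp (Irgm3) are regulators that sit on the cell's own membranes and hold the effectors inactive there.

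Igtp lies on chromosome 11 at 58199556 to 58207591 (GRCm38, GENCODE M21, plus strand), inside the span of Irgm2 at 58199618 to 58222782 on the same strand for all but its first bases. Irgm1 lies at 48861968 to 48871683 on chromosome 11, minus strand. Tgtp1 at 48985327 to 48994172 and Tgtp2 at 49057194 to 49064206 follow on that strand, and both overlap Olfr56 on the other strand. Tgtp1 also overlaps Gm12185, a further IRG-like gene. Neither the counting rule for overlapping genes nor its use of strand is given in the sources used here, so reads in these overlaps are uncertain.

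Promoter sequence was taken from RefSeq (GRCm38.p6), whose table matched 5 of the 6 members. The stretches given here precede the RefSeq start of each gene, and a link to the levels in the results that follow was not tested. Capitals mark 2 motifs of interferon-regulated promoters. The core of the interferon-stimulated response element (ISRE), GAAA followed after any 2 bases by a second GAAA, was searched on both strands, and TTCNNNGAA is the gamma-activated sequence, which reads the same on both strands. Positions count back from −1, the base before the start. The Tgtp1 stretch is chr11:48992259-48992358 (minus strand), Tgtp2 is chr11:49064225-49064324 (minus), Igtp is chr11:58199444-58199543 (plus) and Irgm2 is chr11:58214865-58214964 (plus), each of 100 bases that end at −13. For Irgm1 the 30 bases of chr11:48871431-48871460 (minus, −40 to −11) are shown.
Tgtp1: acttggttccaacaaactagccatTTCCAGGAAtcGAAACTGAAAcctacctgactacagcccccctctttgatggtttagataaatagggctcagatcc
Tgtp2: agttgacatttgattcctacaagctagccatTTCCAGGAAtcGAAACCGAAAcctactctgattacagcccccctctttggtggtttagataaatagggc
Igtp: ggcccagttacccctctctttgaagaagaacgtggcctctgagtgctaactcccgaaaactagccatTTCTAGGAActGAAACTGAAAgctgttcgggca
Irgm2: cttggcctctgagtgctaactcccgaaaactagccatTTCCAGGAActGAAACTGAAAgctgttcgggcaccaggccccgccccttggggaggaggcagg
Irgm1: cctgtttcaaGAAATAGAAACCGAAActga
The ISRE core was present in 5 of the 5 members' 300-base windows and in 3.44% of all 32851 promoter windows of that length. TTCNNNGAA was present in 4 of the 5, all but Irgm1, and in 8.3% of all windows. In Tgtp1, Tgtp2, Igtp and Irgm2 the motifs stood side by side with 2 bases between them, and 0.161% of all windows (53) held both motifs with at most 20 bases between them. The Irgm1 stretch held 2 matches of the ISRE core that overlap, at −30 to −21 and at −24 to −15. Set side by side at the first base of TTCNNNGAA, the Igtp and Irgm2 stretches were identical at 56 of 57 bases, the Tgtp1 and Tgtp2 stretches at 46 of 57, and Irgm2 and Tgtp1 at 38 of 57. A match is a description of the sequence, not a measured site.

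Values are given per M, the recovered reads divided by the library size in mega-reads as the authors scaled it. Depth was 19 to 47.7 M reads per library, apart from 239.7 M in the Col4 co-culture of experiment 5. A count of 0 allows up to 3 reads, or 0.0124 to 0.158 per M by library, and covers counting error only. The 25 T cell identity genes summed to 4.17 to 8 per M in 4T1 alone, to 30.5 to 470.4 in the co-cultures outside experiment 4, and to 1653 to 5024 in the 5 co-cultures of experiment 4, so the amount of T cell RNA differed widely between experiments. The 21 carcinoma epithelial genes measured summed to 3898 to 5689 per M in 4T1 alone and to 2388 to 3657 in the co-cultures of experiment 4. Markers of other spleen cells were also higher there, though the macrophage sum overlapped that of 4T1 alone. The 7 B cell markers summed to 45.7 to 141 per M in experiment 4 against 0.039 to 0.236 in 4T1 alone, the 3 natural killer markers to 27 to 71.6 against 4.537 to 7.61, the 7 erythroid and platelet markers to 7.43 to 46 against 0.337 to 1.00, and the 6 macrophage markers to 11.8 to 17 against 8.51 to 14.7, with overlap. Among the macrophage markers, Lyz2 did not overlap, at 1.61 to 2.95 per M in experiment 4 against 0 to 0.093 in 4T1 alone. Cd14, at 5.67 to 9.07 against 5.36 to 10.7, and Csf1r, at 0.425 to 1.05 against 0.232 to 1.295, did. None of the markers on these lists was at 0 throughout the co-cultures, and their part in the results below was not tested. The library tag in the labels, whose meaning is not stated, was R3 in the 5 wells of 4T1 alone of experiment 4, absent in 4 of its co-cultures and R2 in the fifth, so in that experiment the tag and the T cells cannot be told apart.

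In 4T1 cells without T cells, the effector Iigp1 was close to absent, while the other 5 members were read in every library. Iigp1 gave 0 to 8 reads per library, with no read in 4 of 22, and its mean was 0.075 ± 0.062 per M (SD, n = 22). Tgtp2 ranged from 2.52 to 11.4 per M with a median of 5.15, and Tgtp1 from 2.06 to 9.75 with a median of 4.62. Among the regulators, Irgm1 ranged from 18.5 to 37.4 per M with a median of 26.3. Per length, on the scale of reads per M and kilobase of merged exons, Irgm1 was also highest, at 4.51 ± 0.847 (SD, n = 22). Tgtp2 at 1.85 ± 0.694, Tgtp1 at 1.49 ± 0.553, Igtp at 1.15 ± 0.365 and Irgm2 at 0.859 ± 0.305 followed with overlapping spreads, and Iigp1 was last at 0.013 ± 0.011. Igtp ranged from 0.86 to 3.98 per M and Irgm2 from 1.31 to 6.02. The level differed between experiments. Irgm1 averaged 21.6 ± 1.44 per M in the first (SD, n = 2) and 26.9 ± 2.85, 20.8 ± 2.72, 31.2 ± 4.84 and 27.7 ± 2.40 in the others in order (n = 5 each).

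Across the 22 libraries of 4T1 alone, the members' levels went together, given here as a description of libraries that share experiments. Pearson's r of log2(value + 1) was 0.99 between Tgtp1 and Tgtp2, 0.93 between Irgm1 and Tgtp2, 0.92 between Irgm1 and Tgtp1, and 0.91 between Igtp and Irgm2. Iigp1, near its floor, gave 0.51 to 0.57 with the others. Outside the family, the genes whose log2 value followed the family mean most closely over these libraries were Parp9 (r = 0.94), Gbp2 (0.94), Ifi47 (0.94), Parp14 (0.93) and Oasl2 (0.92). Ifi47 is itself an IRG and Gbp2 a guanylate-binding protein, a second family of interferon-induced GTPases. Over the 13 co-cultures outside experiment 4 the list changed to AW112010 (0.93), Tbcel (0.92), Sesn1 (0.91), Gm11131 (0.91) and Rnaset2b (0.91). In those co-cultures Irgm1 parted from the family, with r of 0.21 to 0.33 to the other 5 members, while the other 5 gave 0.76 to 0.99 with each other.

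The coat on its own did not move the members past the threshold. In 4T1 alone on PS, Fn, Col1, Col4 and Vtn, Igtp averaged 2.05 ± 0.442, 2.57 ± 0.832, 2.44 ± 0.776, 2.91 ± 0.641 and 1.64 ± 0.543 per M (SD, n = 5, 5, 4, 4 and 4). Irgm1 averaged 24.4 ± 3.97, 27.6 ± 6.44, 25.5 ± 5.39, 30.1 ± 3.52 and 23.3 ± 3.32 per M on the same substrates. Col4 was highest and Vtn lowest for both, with ranges that overlap. In limma on log2(value + 1), 0 of 30 member tests passed an adjusted p of 0.05, over the 4 coats against PS and an F test across substrates. At an unadjusted p under 0.05 the count was also 0, with limma and with edgeR. Among all 14701 genes tested, 14 passed on Col1 (0.0952%), 1 on Col4 (0.0068%), 0 on Fn and 0 on Vtn, and 0.252% passed the F test. For the Col4 against PS difference the 95% interval was −1.49 to 2.46 log2 units for Tgtp2, the widest of the 6 members, and −0.48 to 1.07 for Irgm1, the narrowest. Once the experiment was a term of the model and experiment 4 was left out, a choice made after seeing the data, Irgm1 passed the F test (adjusted p = 0.0258, limma, 3.38% of genes passing).

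Of the 5 members that passed the filter on low values in 4T1 alone as well, Igtp, Irgm2, Tgtp1 and Tgtp2 rose when T cells were added and Irgm1 did not pass. Averaged over the 5 substrates, the co-culture minus 4T1 alone difference in log2(value + 1) was 1.66 ± 0.45 for Igtp (SE, adjusted p = 0.0132), 1.61 ± 0.46 for Tgtp2 (0.0164) and 1.60 ± 0.46 for Tgtp1 (0.0167) in limma. It was 1.35 ± 0.38 for Irgm2 (0.015). Irgm1, the regulator with the highest level at rest, stood at 0.34 ± 0.18 (adjusted p = 0.162, 95% interval −0.04 to 0.71). Of all genes tested, 13.1% passed as higher, 12.2% as lower and 25.2% in either direction. The median difference over all genes was −0.01. Iigp1 reached the filter of 1 per M in 0 of 22 libraries of 4T1 alone and 6 of 18 co-cultures, 5 of them of experiment 4. It was thus tested only because it was high in co-culture, so its differences are given as descriptions: 1.37 in this mean, 2.89 with 0.1 added and 0.63 with 5. Counts below that run over all 6 members include Iigp1, and its p-values there are no support for a rise. These calls changed with the processing. In edgeR on the recovered reads, where 26.9% of genes passed in either direction, Irgm1 passed too (0.55, adjusted p = 0.0415). Without experiment 3, Irgm2 (adjusted p = 0.0501), Tgtp1 (0.0507) and Tgtp2 (0.0502) no longer passed in limma.

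**Figure D1:**
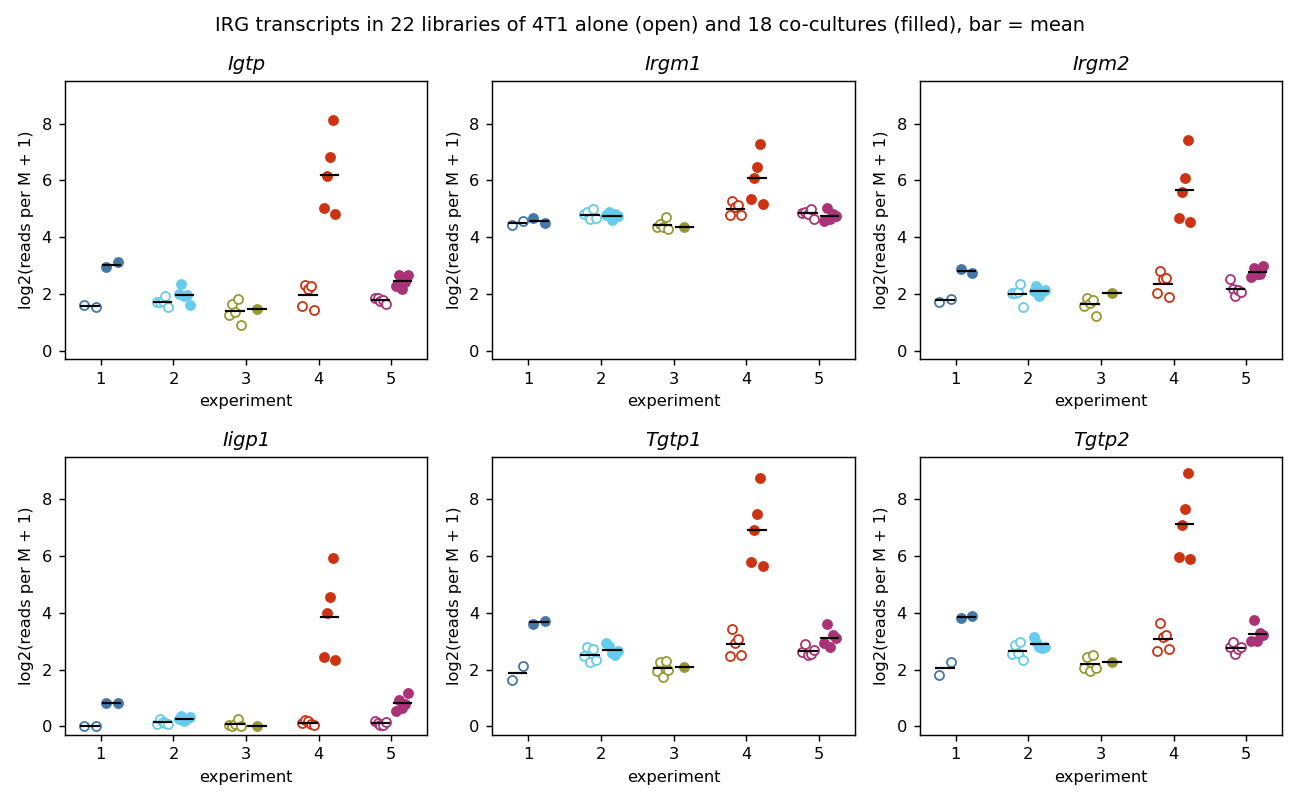
Each panel plots log2(reads per M + 1) of 1 member against the experiment, with open points for 4T1 alone (22 libraries), filled points for co-cultures (18) and a bar at each mean. The co-cultures of experiment 4 stand above every other co-culture for all 6 members, and outside it the Irgm1 co-cultures lie within 19.4 to 31.5 per M.

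The spread of the co-cultures was far wider than that of 4T1 alone. Igtp ranged from 1.79 to 277 per M in co-culture with a median of 4.85, and Tgtp2 from 3.79 to 489.3 with a median of 8.59. Iigp1 ranged from 0 to 59.4 with a median of 0.744, Irgm2 from 2.8 to 170.2 with a median of 5.58, and Tgtp1 from 3.21 to 424.4 with a median of 7.9. Irgm1 ranged from 19.4 to 153.7, but its median of 26.6 lay next to the 26.3 of 4T1 alone. Within pairs of the same experiment and substrate, the co-culture was higher in 17 of 18 pairs for Igtp and Iigp1, in 16 for Irgm2, Tgtp1 and Tgtp2, and in 10 for Irgm1. With the experiment as the unit, the exact sign-flip permutation test over 5 experiments (two-sided, smallest possible p 0.063) gave p = 0.063 for Irgm2, higher in 5 of 5, 0.1875 for Igtp, Iigp1, Tgtp1 and Tgtp2, higher in 4 of 5, and 0.875 for Irgm1, higher in 2 of 5, so no p below 0.05 could be reached. With the experiment as a block, 45.8% of all genes passed, as did Igtp, Irgm2, Tgtp1 and Tgtp2, with Irgm1 at 0.24 ± 0.13 (adjusted p = 0.14, limma).

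Most of the size of these means came from experiment 4. The Tgtp2 effector read 62 per M on PS, 135.7 on Fn, 202.2 on Col1, 489.3 on Col4 and 58 on Vtn in its co-cultures, against 5.33, 11.4, 7.83, 8.38 and 5.6 in 4T1 alone. Tgtp1 read 54.5, 119.5, 179.7, 424.4 and 49.5 per M in the same co-cultures. Iigp1 had 1 to 5 reads per library in 4T1 alone and 146 to 1677 in co-culture, or 4.47, 14.7, 22.8, 59.4 and 4.05 per M. Every effector value of these co-cultures lay above every value of 4T1 alone, whatever the experiment. The same held for Igtp and Irgm2, and for 15.5% of all genes. Of the regulators, Igtp read 31.5, 69.8, 112.6, 277 and 26.9 per M, where 4T1 alone gave 1.98, 3.98, 3.47, 3.85 and 1.72. Irgm2 read 24.6, 46.9, 67.4, 170.2 and 22.3 per M. Irgm1 read 40, 67.6, 86.7, 153.7 and 35.2 per M against 26.5, 37.4, 32.1, 33.9 and 26.2. The fold within pairs was thus 15.67 to 72.02 for Igtp, 10.35 to 58.37 for Tgtp2 and 7.79 to 34.87 for Irgm2, but 1.34 to 4.5 for Irgm1, whose Vtn co-culture overlapped 4T1 alone. For every member, all 5 values lay above all 13 other co-cultures, as did those of 14.3% of all genes.

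Within experiment 4 the differences passed in limma for all 5 members that passed the filter in 4T1 alone, at 4.23 ± 0.28 for Igtp (adjusted p = 1.07e-14), 4.04 ± 0.27 for Tgtp1 (1.88e-14), 4.03 ± 0.27 for Tgtp2 (1.23e-14), 3.305 ± 0.26 for Irgm2 (7.27e-13) and 1.08 ± 0.17 for Irgm1 (2.21e-06). In this experiment 32.4% of all genes passed as higher and 64.3% in either direction, so passing was common there. The median difference over all genes was −0.01. The wells of an experiment share its T cells, so the 5 pairs are not 5 independent batches of T cells. The SEs and p-values rest on a spread pooled over all experiments. Pair changes in experiment 4 had an SD of 1.04 for Igtp and 0.709 for Irgm1, against 0.238 and 0.092 in experiment 2. The pooled spread thus understates that of experiment 4. The Iigp1 difference, again a description, was 3.73, with 6.14 when 0.1 was added in place of 1 and 1.96 with 5.

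Per length, the order of the members changed in these co-cultures. The median over the 5 was 46.2 reads per M and kilobase for Tgtp2, 37.3 for Tgtp1 and 34.5 for Igtp. Irgm2 at 12.7 and Irgm1 at 11.6 came next, and Iigp1 was last at 2.53. Irgm1, the highest in 4T1 alone, was thus below Tgtp2, Tgtp1 and Igtp, while its place beside Irgm2 differed between the 5 libraries.

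The other experiments gave smaller rises. In experiment 1 the co-cultures on PS and Fn read 13.2 and 13.7 per M of Tgtp2 against 2.52 and 3.86 in 4T1 alone, with no overlap. Tgtp1 rose by 1.80 ± 0.43 (adjusted p = 0.00851) and Tgtp2 by 1.81 ± 0.43 (0.00688) in limma, where 3.16% of genes passed as higher. Igtp at 1.47 ± 0.45 (0.0709) and Irgm2 at 1.04 ± 0.41 (0.347) did not pass, and Irgm1 stood at 0.08 ± 0.27 (0.99). Iigp1 gave 31 and 36 reads in the 2 co-cultures and none in the 2 wells of 4T1 alone. The Tgtp1 and Tgtp2 calls were lost without the PS well of either arm or the Fn well of 4T1 alone (adjusted p = 0.0938, 0.177 and 0.0935 for Tgtp1), and with 5 added in place of 1 (0.445 for Tgtp1 and 0.359 for Tgtp2).

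In experiment 5, Igtp, Iigp1, Irgm2, Tgtp1 and Tgtp2 were higher in 5 of 5 pairs, but no member passed over all genes in limma, where 2.55% passed as higher. Igtp stood at 0.67 ± 0.28 (adjusted p = 0.157), Irgm2 at 0.62 ± 0.26 (0.156), Tgtp1 at 0.48 ± 0.27 (0.321), Tgtp2 at 0.48 ± 0.27 (0.306) and Irgm1 at −0.08 ± 0.17 (0.829). The Iigp1 difference, as a description, was 0.71. Single libraries of experiment 4, which share in the estimate of the spread, changed such calls. Without its Col4 co-culture, Igtp (adjusted p = 0.0231) and Irgm2 (0.021) passed in experiment 5, where 6.84% of genes then passed as higher. Igtp (0.000849) and Irgm2 (0.0134) passed in experiment 1, where 6.23% then did, and Igtp did there also without the PS (0.0318) or the Vtn co-culture (0.0302) of experiment 4. In experiment 2 none of the 6 passed in limma, adjusted or not (1.27% of genes did as higher), with differences from −0.04 ± 0.17 for Irgm1 to 0.24 ± 0.28 for Igtp. The single pair of experiment 3 changed by −0.367 for Irgm1 and 0.223 for Irgm2. The model, whose substrate terms and spread come from the other libraries too, gave −0.37 ± 0.31 and 0.06 ± 0.47, with 0 of 6 passing in limma, adjusted or not, and 0.286% of genes passing as higher. Over the 25 tests of the 5 members other than Iigp1 in the 5 experiments, 11 had an unadjusted p under 0.05 and 7 passed after adjustment.

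The T cell effect of experiment 4 exceeded that of experiments 1, 2 and 5 for Igtp, Irgm1, Irgm2, Tgtp1 and Tgtp2, as tested on the difference itself. All 15 tests passed in limma, on the same pooled spread. Of all genes, 19.4%, 26.1% and 23.8% passed as higher against experiments 1, 2 and 5. Against experiment 1 the difference was 2.76 ± 0.53 for Igtp (adjusted p = 0.000199), 2.23 ± 0.51 for Tgtp1 (0.00132) and 0.99 ± 0.32 for Irgm1 (0.018). With experiment 4 left out, the mean T cell effect still passed for Igtp, Irgm2, Tgtp1 and Tgtp2 at a smaller size, while 2.54% of genes passed as higher. It was 0.63 for Igtp (adjusted p = 0.00397), 0.62 for Tgtp2 (0.0116), 0.60 for Tgtp1 (0.0181), 0.56 for Irgm2 (0.0165) and 0.03 for Irgm1 (0.918), and Iigp1 was at 0.46. That fit had no term for the experiment, whose wells share T cells. With the block as well, the means were 0.541 for Igtp, 0.512 for Tgtp2, 0.491 for Tgtp1, 0.465 for Irgm2 and −0.052 for Irgm1. With any 1 experiment left out, the sign-flip test over experiments gave no p below 0.125 for a member.

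**Figure D2:**
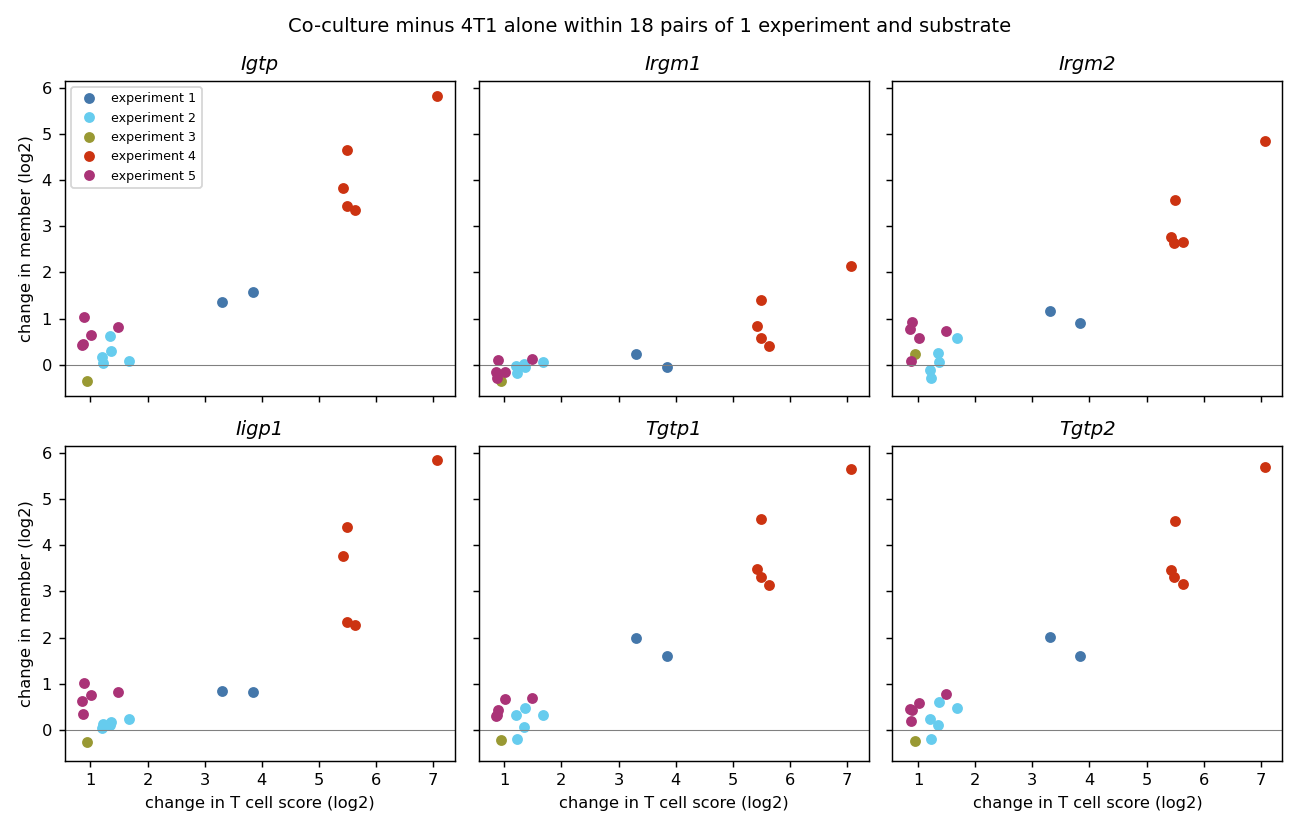
Each panel plots the within-pair change of 1 member, in log2(reads per M + 1), against the within-pair change of the T cell score for 18 pairs, with 1 colour per experiment. Pairs of experiment 4 lie at the upper right for all members, and Irgm1 stays near 0 in the other experiments, including experiment 1.

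The T cell score, the mean log2(value + 1) of the 25 T cell identity genes, changed within pairs by 3.57, 1.36, 0.937, 5.82 and 1.03 in experiments 1 to 5. For every member experiment 4 came first and experiment 1 second, as for that score. Experiments 2 and 5 stood the other way round for all members but Irgm1, since Igtp changed by 0.24 in experiment 2 and 0.67 in experiment 5, Iigp1 by 0.13 and 0.71, and Irgm2 by 0.10 and 0.62. That difference was not tested. Irgm1 changed by 0.08 in experiment 1, where the T cell score had already risen by 3.57, and by 1.08 in experiment 4. With each library scaled to its carcinoma epithelial genes, where the all-gene median was 0.167 in place of −0.01 and 3.14% of genes passed as higher, the mean T cell effect of Igtp was 1.83 (adjusted p = 0.0435, limma) and of Irgm2 1.523 (0.0496), and Tgtp1 at 1.78 (0.0526) and Tgtp2 at 1.79 (0.0518) fell just short.

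Among the co-cultures of experiment 4, the substrates stood in the same order for all 6 members: Col4, then Col1, Fn, PS and Vtn. Between the ends of that order, Igtp was 277 per M on Col4 and 26.9 on Vtn, and Iigp1 was 59.4 and 4.05. The T cell score was 7.25 on Col4, 5.86 on Vtn, 5.73 on Col1, 5.69 on PS and 5.64 on Fn. Below Col4 these scores lay too close, with 1 library each, to set an order among those substrates. Irf1 stood in the order of the members, at 227.5 per M on Col4, 140.7 on Col1, 124.6 on Fn, 89.9 on PS and 88 on Vtn. Ifng, the gene of interferon gamma, gave 16 reads on Col4 (0.567 per M), 17 on Col1 (0.456), 7 on Fn (0.191), 6 on PS (0.174) and 4 on Vtn (0.111), counts too low to separate neighbours. In the wells of 4T1 alone of the same experiment, PS and Vtn were also the lowest for 5 members, with Fn highest, while Iigp1 had 1 to 5 reads. Each substrate had 1 co-culture in experiment 4, so this order has no replicate.

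**Figure D3:**
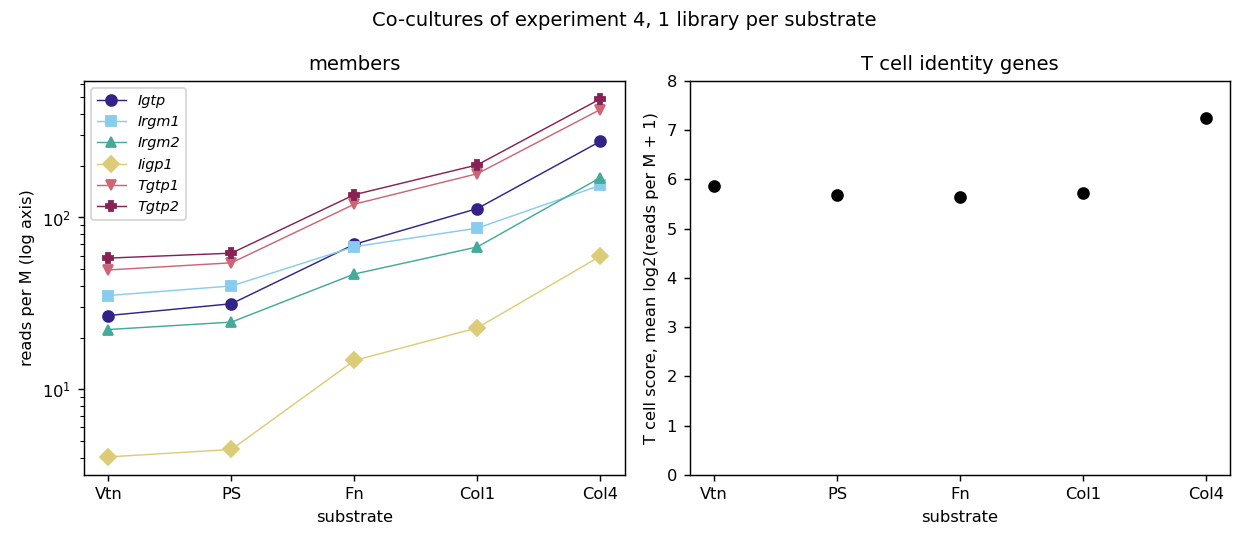
On the left, reads per M (log axis) of the 6 members in the 5 co-cultures of experiment 4, with lines that join 1 member across substrates. On the right, the T cell score of the same libraries, highest on Col4 and close together, at 5.64 to 5.86, on the other substrates.

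Over all experiments the T cell effect could not be separated between substrates. On PS, Fn, Col1, Col4 and Vtn, Igtp averaged 11.3 ± 13.6, 21.7 ± 32.1, 39.6 ± 63.2, 71.5 ± 137 and 11.4 ± 13.5 per M in co-culture (SD, n = 4, 4, 3, 4 and 3), each SD larger than its mean. The difference from 4T1 alone ran from 1.47 ± 0.95 log2 units on PS to 1.89 ± 1.08 on Col1. For Irgm1 it ran from 0.19 ± 0.38 on PS to 0.52 ± 0.43 on Col1. On single substrates 0 of 30 member tests passed in limma, adjusted or not (lowest unadjusted p 0.071), and 0 genes of the 14701 did after adjustment (0%). At an unadjusted p under 0.05 the count was 12 of 30 with the replicate block in limma and 23 of 30 in edgeR, Iigp1 included. With edgeR on the recovered reads Iigp1 passed on Col4 (adjusted p = 0.0382, 1.78% of genes as higher), and with the replicate block in edgeR it passed on Col1 (0.0427, 2.21%), Col4 (0.0128, 5.09%) and Fn (0.0224, 3.07%), a gene tested only through its co-cultures. With the block in limma and experiment 4 left out, Tgtp1 (adjusted p = 0.0373) and Tgtp2 (0.0358) passed on PS, where 1.76% of genes did as higher, and Igtp (0.0076) on Fn, where 2.61% did.

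**Figure D4:**
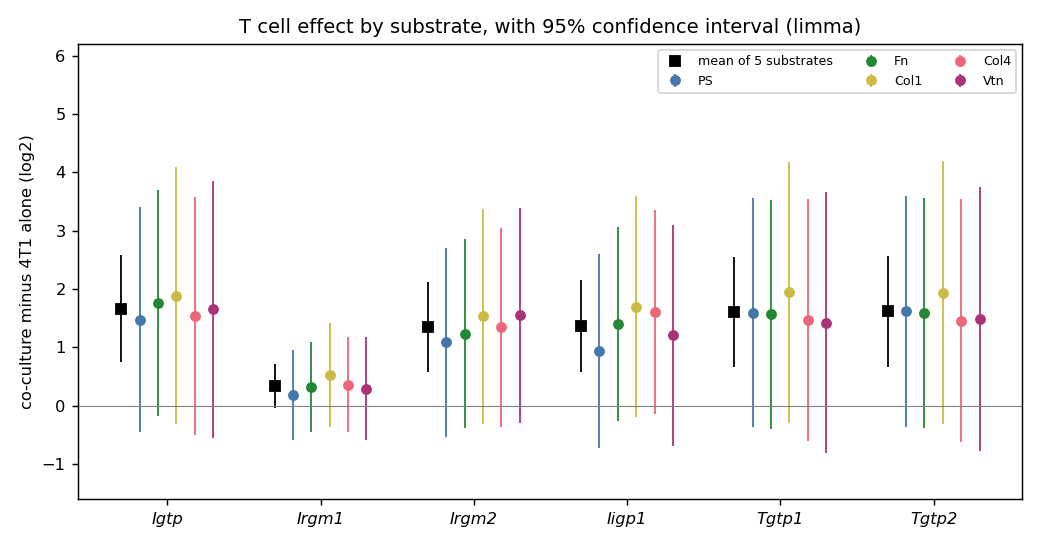
The difference between co-culture and 4T1 alone in log2(reads per M + 1) is drawn for each member, as the mean of 5 substrates (black squares) and on each substrate (points), with 95% confidence intervals from limma. The intervals on single substrates all reach below 0, and that of the mean does so for Irgm1.

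In co-culture no coat gave a member difference from PS that passed. The counts were 0 of 30 member tests in limma (0 also at an unadjusted p under 0.05) and 0 of 30 in edgeR (6 unadjusted), with 1 gene of all passing on Col1 (0.0068%), 2 on Col4 (0.0136%), 0 on Fn, 0 on Vtn and 0.129% in the F test. The Col4 against PS interval for Igtp ran from −1.61 to 2.46 and for Irgm1 from −0.34 to 1.29. The test of a different T cell effect on a coat than on PS passed for 0 of 24 in limma and in edgeR, adjusted or not, and for 0% of all genes in limma. Its interval for Igtp was −2.74 to 2.88 on Col4 and −2.75 to 3.11 on Vtn, so a difference of several log2 units in either direction could not have been detected.

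Tgtp1 and Tgtp2 cannot be fully separated. Of the 75-base windows of their transcripts, 74.6% of those of Tgtp1 occur in Tgtp2 and 81.4% of those of Tgtp2 in Tgtp1, at the read length used. How reads that match both were counted is not given in the sources used here. The ratio of Tgtp1 to Tgtp2 was 0.774 to 1.01 over the 40 libraries with a median of 0.872, and the pair is best read as 1 measurement. Igtp and Irgm2 share less, 7.8% of the windows of Igtp and 4.5% of those of Irgm2, while Irgm1 and Iigp1 share none with other genes.

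Other genes of the interferon gamma pathway were read on lists that were chosen with earlier results of these data known. In the mean over substrates, where 13.1% of all genes rose in limma, 4 further IRG genes passed the filter in 4T1 alone and 3 of them rose, with a median of 0.87. The 2 with the largest differences were 9930111J21Rik1 (0.98 ± 0.31) and 9930111J21Rik2 (0.95 ± 0.30). Irgq, which did not pass, stood at 0.02 ± 0.05. Another 3, Gm12185 (0.89), Gm12250 (0.82) and Gm4841 (0.37), met the filter only through co-cultures, as Iigp1 did. Within experiments 1, 2, 4 and 5, 3, 0, 3 and 0 of the 4 passed, where 3.16%, 1.27%, 32.4% and 2.55% of all genes passed as higher. Of 6 guanylate-binding proteins, GTPases that attack the same vacuoles, that passed the filter in 4T1 alone, 3 rose (6 with the block), with a median of 0.78, led by Gbp4 (1.68 ± 0.40). With the block, 22.4% of all genes passed as higher. Gbp8 (1.48), Gbp6 (1.28) and Gbp10 (1.18) were among 5 that met the filter only through co-cultures. Of the 6, 1 passed in experiment 1, 0 in experiment 2, 6 in experiment 4, where Gbp4 stood at 3.67 ± 0.26 beside 4.23 ± 0.28 for Igtp, and 0 in experiment 5.

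Of 13 interferon gamma signalling genes tested, 6 rose in the mean over substrates (8 with the block, where 22.4% of all genes passed as higher), with a median of 0.36. Among these were Nlrc5, an activator of MHC class I genes (0.92 ± 0.29), the receptor chain Ifngr1 (0.86 ± 0.23), the feedback inhibitor Socs1 (0.59 ± 0.22), Jak1 (0.47 ± 0.14) and Jak2 (0.25 ± 0.07). Irf1 stood at 0.12 ± 0.17 (adjusted p = 0.603, limma) and Ifngr2, the second receptor chain, at 0.07 ± 0.05 (0.308). Within experiment 4, where 32.4% of all genes passed as higher, all 13 rose, with Irf1 at 0.49 ± 0.12. In experiment 1, 1 of 13 passed (3.16% of all genes as higher), and 0 did in experiments 2 (1.27%) and 5 (2.55%). Ifng itself was not tested, with 0 to 4 reads per library in 4T1 alone and 0 to 17 in co-culture. T cells carry Ifngr1 and Jak1 too, so these levels hold RNA of both cell types. Of 17 genes for ATG8 conjugation and vacuole targeting, the machinery that directs IRG proteins to vacuoles, 3 rose: Trim21 (0.47 ± 0.17), Traf6 (0.18 ± 0.05) and Atg12 (0.15 ± 0.05), with a median of 0.02, a share near the 13.1% of all genes. With the block 4 were higher, near the 22.4% of all genes then, and 3 lower, while 45.8% of all genes passed in either direction. Of 13 type I interferon genes that passed the filter in 4T1 alone, Irf7 (0.71 ± 0.27) and Ddx58 (0.21 ± 0.08) rose, a share near that of all genes, while Isg15 at −0.25 ± 0.12 and Oasl1 at −0.26 ± 0.12 did not pass. With the block 4 of the 13 were higher and 2 lower, Isg15 (adjusted p = 0.000698, limma) and Oasl1 (0.000752). These counts stand beside the same 22.4% of all genes as higher and 45.8% in either direction. Within experiment 4, 7 of the 13 passed as higher and 2 as lower, with a median of 0.5, where 32.4% and 32% of all genes did. None passed in experiments 1 and 2, and in experiment 5, 0 passed as higher and 2 as lower, where 1.82% of all genes passed as lower.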

How the data were processed

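Single-end reads of 75 bases were sequenced, per the labels' protocols. The authors used edgeR 3.31.7, featureCounts and STAR 2.6 with build mm10, per the submitters' processing notes. The deposited signal is reads divided by a scaled library size: 100% of values gave whole reads within 0.01. A duplicate line of 1 gene and 1 gene with a cell that held no number were dropped. No column was left unmapped. Analysis used log2(value + 1) with limma 3.58.1 (R 4.3.3, intensity trend) on the 14701 genes at 1 or more in at least 3 libraries, fitted to all 40 libraries as 10 group means (30 residual degrees of freedom), or with substrate, experiment and a T cell effect per experiment (26). Benjamini-Hochberg adjustment ran over all genes tested, separately for each comparison, with a threshold of 0.05. Members and list genes that met the filter only through co-cultures (fewer than 3 libraries of 4T1 alone at 1 or more) are described and not counted. The exception is Iigp1 in counts that run over all members. The test was run first on simulated reads that held no differences between experiments. That run gives no error rate for data whose experiments differ as these do. Alternatives were other added constants, no filter, other scalings, edgeR 4.0.16 (quasi-likelihood) on the recovered reads, the replicate block and leave-outs. The replicate number pairs the arms because the labels name it as the experiment: the median residual correlation was 0.478 where 2 libraries shared it (156 pairs) and −0.131 elsewhere (562). T cells of an experiment are shared by its wells. The members and lists were chosen with earlier results of these data known. Named genes are all members, up to 4 passing genes of each list with the largest differences, members of the signalling list (one is not reported here), and the 5 genes most like the family; Isg15 and Oasl1, Irgq and Irf1 values were added after their values were seen.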

Additional observations from a re-analysis of the deposited data

Results flagged for a closer look

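In 48 groups of 4 or 5 libraries tested for a library far from its group by Dixon's criterion, whose nominal rate is about 1 in 20 per group, 17 values stood apart. Of these, 16 were co-cultures of experiment 4. On PS they were Igtp at 31.5 per M, Irgm2 at 24.6, Iigp1 at 4.47, Tgtp1 at 54.5 and Tgtp2 at 62. On Fn they were Igtp at 69.8, Irgm2 at 46.9, Iigp1 at 14.7, Tgtp1 at 119.5 and Tgtp2 at 135.7. On Col4 they were Igtp at 277, Irgm1 at 153.7, Irgm2 at 170.2, Iigp1 at 59.4, Tgtp1 at 424.4 and Tgtp2 at 489.3. The one value without T cells was Irgm2 on Fn in experiment 4, at 6.02 per M. The groups on Col1 and Vtn with T cells held 3 libraries and were not tested. The groups use the same libraries for 6 genes that vary together, so they are not independent, and the share flagged over all genes was not computed. For 14.3% of all genes, every co-culture of experiment 4 lay above every other co-culture.

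The T cell effect of experiment 4 differed from that of each other experiment with 2 or more pairs. On the log2 scale the excess over experiment 1 was 2.76 for Igtp, 0.99 for Irgm1, 2.27 for Irgm2, 2.90 for Iigp1, 2.23 for Tgtp1 and 2.23 for Tgtp2. Over experiment 2 it was 3.99 for Igtp, 1.11 for Irgm1, 3.21 for Irgm2, 3.59 for Iigp1, 3.85 for Tgtp1 and 3.80 for Tgtp2. Over experiment 5 it was 3.56 for Igtp, 1.16 for Irgm1, 2.69 for Irgm2, 3.02 for Iigp1, 3.56 for Tgtp1 and 3.55 for Tgtp2.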

How the results depend on the processing

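With 9 alternatives and the leave-outs, 1388 recomputed values kept their direction and side of the threshold, and 394 recomputed counts stayed within 1.5 times the reported count. For the mean T cell effect, the number of members passing, Iigp1 included throughout, was 5, and 2 after scaling to carcinoma epithelial genes, where Iigp1 (1.51, adjusted p = 0.0513), Tgtp1 (1.78, 0.0526) and Tgtp2 (1.79, 0.0518) were lost and 462 of all genes passed in place of 3710. In edgeR Irgm1 passed (0.55, adjusted p = 0.0415) and the other members were larger (Igtp 3.41, Iigp1 5.82). All genes passing were 6726 with the replicate block in limma, 6561 with the block in edgeR, and 1535 with the block and experiment 4 left out, where Irgm1 turned to −0.052. The block changed no other call of a member in limma. Calls over members on single substrates were 0 in limma, 1 in edgeR, 3 in edgeR with the block, and 3 with the block and experiment 4 left out, where the coats in 4T1 alone gave 1. Leaving out 1 library or 1 experiment gave 430 to 5265 genes passing and 2 to 5 members. Without experiment 3, Irgm2 (adjusted p = 0.0501), Tgtp1 (0.0507) and Tgtp2 (0.0502) were lost and 1365 genes passed; without experiment 4, 430 did. Without the co-culture of experiment 4 on PS, Fn, Col1 or Vtn, 2216, 2335, 1885 and 1516 genes passed. Over these leave-outs, Igtp ranged from 0.63 to 2.24, Irgm1 from 0.03 to 0.49, Irgm2 from 0.56 to 1.86, Iigp1 from 0.46 to 1.86, Tgtp1 from 0.60 to 2.16 and Tgtp2 from 0.62 to 2.17. Calls on single substrates ranged from 0 to 1, calls within experiments from 6 to 13 (main 8) and differences of experiment 4 from 17 to 18. Signs turned for Irgm1 in experiment 2 after epithelial scaling (0.059) or without 1 of 3 libraries (0.007, 0.006 and 0.035 without the PS well alone and the Col1 and Col4 co-cultures; range −0.096 to 0.035) and in experiment 1 without the PS co-culture (range −0.126 to 0.292). They turned for Iigp1 in experiment 2 with quantile normalisation (−0.097) and for Irgm2 there without the Vtn co-culture (range −0.009 to 0.2). Over experiments, Irgm1 was 0.14, with a range of −0.101 without experiment 4 to 0.26. With 0.1 added in place of 1, Iigp1 passed in experiments 1 (adjusted p = 0.00134) and 5 (0.000501) and Igtp in experiment 1 (0.0109). Iigp1 met the filter only through co-cultures, so its p-values here are no support for a rise. At that setting more of all genes passed as higher in each of these experiments than in the main fit. The cause of these changes was not tested. Fits within experiments gave no value when a whole experiment or the co-culture of experiment 3 was left out. Depth limits Iigp1 and Ifng, read by under 10 reads per library of 4T1 alone.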
